A study of Mus musculus with 21 samples.

Results

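The genes described here encode 10 receptors for lipid mediators: the leukotriene receptors Cysltr1, Cysltr2, Oxgr1 and Ltb4r1, the prostaglandin E2 receptors Ptger2, Ptger3 and Ptger4, the prostaglandin D2 receptors Ptgdr and Ptgdr2, and the sphingosine 1-phosphate receptor S1pr1. They were taken by symbol, as 10 of the 43432 gene identifiers in 21 RNA-seq count files, and all 10 were found. Tuft cells, rare chemosensory epithelial cells, were sorted from 5 tissues of untreated C57BL6.Il25(Flare25/Flare25) mice, in which a fluorescent reporter follows the Il25 gene. The tuft groups were small intestine (n = 3), colon (n = 4), gall bladder (n = 3), thymus (n = 4) and trachea (n = 4), all live, CD45-negative, EPCAM-positive and reporter-positive. Reporter-negative small intestine epithelium from mice of the same genotype (n = 3) was the non-tuft group. Mice were 12-week-old males, 1 per library, except in trachea, where each library pooled 4 mice of 12, 16, 16 and 14 weeks in replicates 1 to 4, with replicates 3 and 4 female. What is called a tuft cell here is a cell with Il25 reporter signal, and a non-tuft cell was measured in small intestine only. Thymus and trachea were dissociated with enzymes and the other tissues with EDTA, so tissue and dissociation cannot be told apart in comparisons that cross them.

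Cysteinyl leukotrienes, prostaglandins and sphingosine 1-phosphate are signalling lipids that act on nearby cells through G protein-coupled receptors. Tuft cells are known mainly as a source of such lipids: in the gut and airway they make cysteinyl leukotrienes and prostaglandin D2, which act on immune cells, epithelium and nerve endings. Whether the tuft cells themselves carry the receptors is a separate question, since a receptor in the producing cell would let it respond to its own product or to that of its neighbours.

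Total counts ranged from 25739248 to 73574745 per library. Sorted cells ranged from 130 to 453 in trachea and from 1350 to 1900 in thymus, up to 52000 to 57000 in the non-tuft group. Levels are given as CPM, counts scaled with TMM to a common library total. In these libraries 3 counts, the upper limit that a count of 0 allows, corresponded to between 0.0434 and 0.117 CPM; this limit covers counting error only. All 10 tuft markers of a fixed list (Pou2f3, Trpm5 and Dclk1 among them) had a mean of at least 1 CPM in every tuft group, and their summed level was 3017 to 18347 CPM in tuft libraries against 134 to 254 CPM in non-tuft libraries. In such bulk samples a lower share of cells with a receptor and less receptor RNA per cell cannot be told apart. A call required a difference of at least 1 on the log2 scale, in either direction, together with an adjusted p below 0.05. The p-values came from edgeR's quasi-likelihood test with Benjamini-Hochberg adjustment over all genes tested. Every adjusted p in the following comes from that test unless another method is named. The ± after a log2 fold change is a standard error derived from the fold change and the F statistic of the test.

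**Figure D1:**
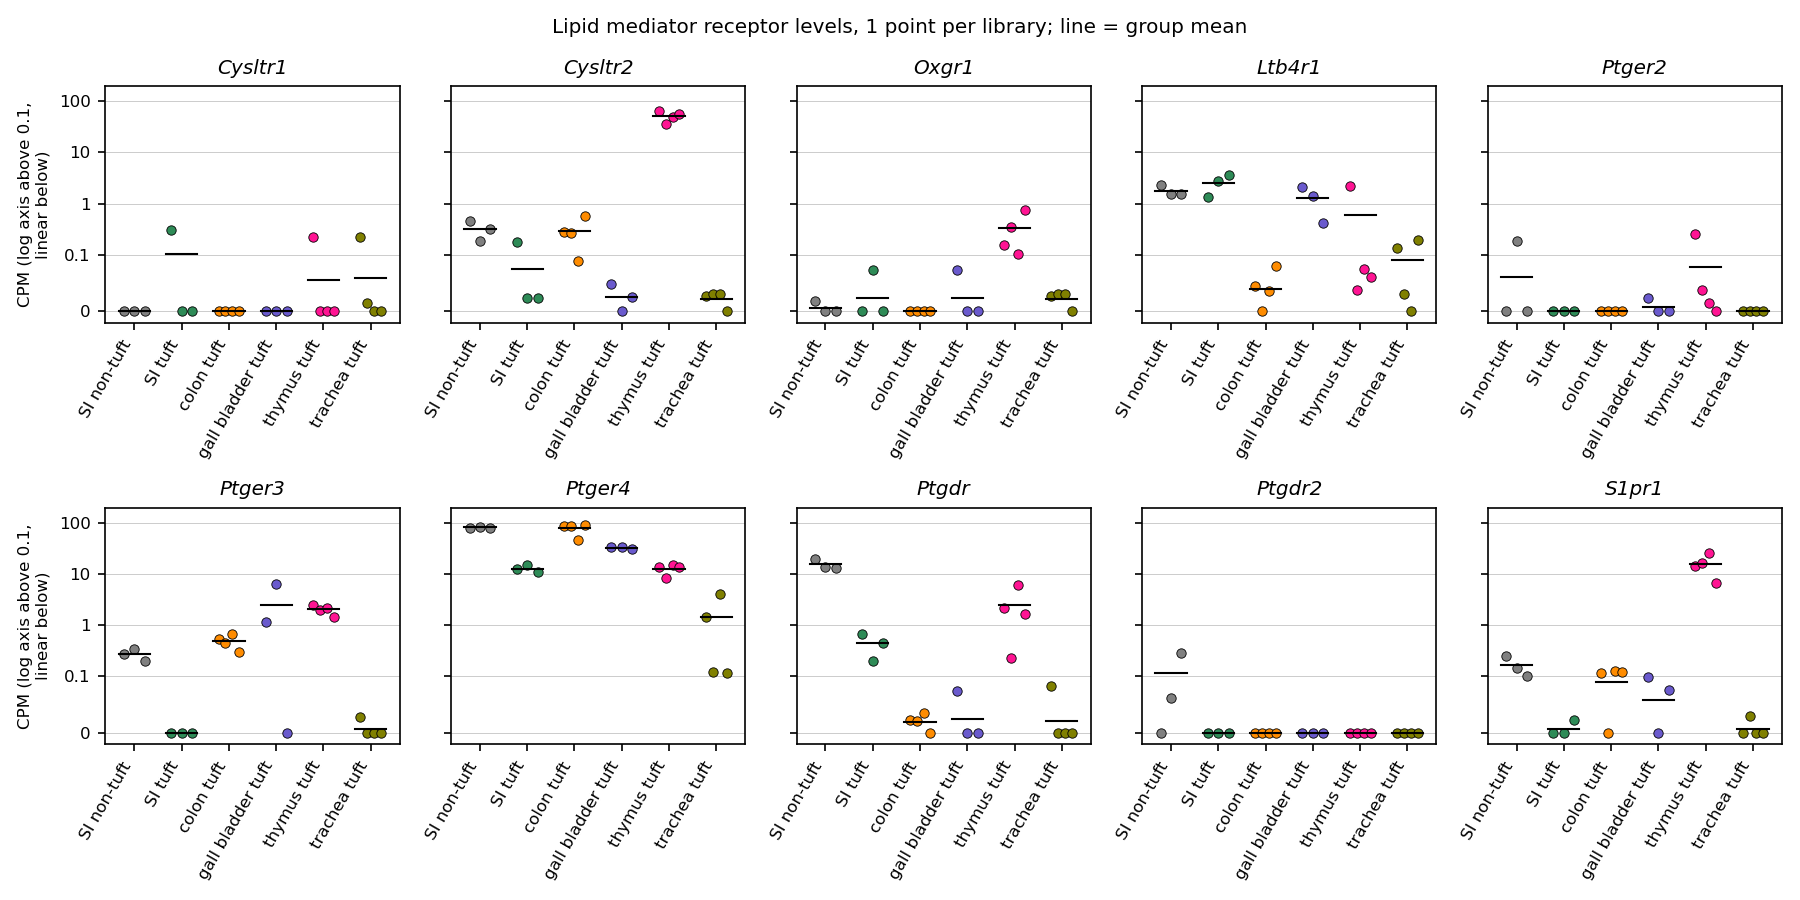
Level of each receptor in CPM (vertical axis, logarithmic above 0.1 and linear below) in the 6 groups, with 1 point per library and a line at the group mean. Cysltr2 and S1pr1 stood high in the 4 thymus libraries only, Ptger4 was present in every library, and Ptgdr2 was at 0 in all 18 tuft libraries.

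Among the leukotriene receptors, Cysltr2 was high in thymus tuft cells alone. It encodes CysLT2, a receptor for cysteinyl leukotrienes, and lies on chromosome 14 at chr14:73025603-73049114 (GRCm38, minus strand). Its level was 63.5, 35.3, 49.2 and 57.0 CPM in the 4 thymus tuft libraries, a mean of 51.3 ± 12.2 CPM (SD, n = 4). It was 0.447, 0.182 and 0.318 CPM in the non-tuft libraries, 0.175, 0.0244 and 0.0233 CPM in small intestine tuft, and 0.273, 0.260, 0.0896 and 0.561 CPM in colon tuft. In gall bladder tuft it was 0.0491, 0 and 0.0250 CPM, and in trachea tuft 0.0276, 0.0303, 0.0315 and 0 CPM. No thymus library overlapped any other, and the lowest thymus value was far above the highest value elsewhere.

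The mean in thymus was 162-fold that of the non-tuft group and 173-fold that of colon tuft, the next highest of the tuft groups. Against the mean of the other 4 tuft tissues, Cysltr2 was higher in thymus by 9.64 ± 0.61 on the log2 scale (adjusted p = 1.23e-09), and the call held in every alternative run. Here and below, such a contrast averages the fitted log2 levels of the other tissues, so tissues near 0 weigh heavily. The CPM means given beside such contrasts are arithmetic and need not give the same fold change. Per kilobase of exon its thymus level was 17.8 CPM, the highest of any of the 10 receptors in any group. Below thymus the order was non-tuft, colon, small intestine, gall bladder and trachea, and no neighbours in that order differed by a call. Gall bladder and trachea were nevertheless each called lower than colon tuft (log2 fold changes of -3.33 ± 0.99 and -3.51 ± 0.89, adjusted p = 0.0236 and 0.00617), on 3 counts in gall bladder and 4 in trachea over the whole group.

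The promoters of 8 of the 10 receptors were found in RefSeq's table for GRCm38.p6; Cysltr1 and S1pr1 were not matched. The 250 bases before the start site of Cysltr2 (chr14:73049115-73049364, minus strand) are shown because this gene separated thymus from every other group, and those of Ptgdr (chr14:44859376-44859625, minus strand) because it was the other matched receptor at 2 CPM or more in thymus that was near 0 in colon, gall bladder and trachea. That of Ptger4 (chr15:5244188-5244437, minus strand) is shown as the contrast, a receptor with counts in all 21 libraries, and that of Ltb4r1 (chr14:55765712-55765961, plus strand) for a leukotriene B4 receptor with counts in every small intestine and gall bladder library. Sequences run 5′ to 3′ on the strand of the gene, and capitals mark matches, on either strand, to the GC box GGGCGG and to the RUNX core TGTGGT.
Cysltr2: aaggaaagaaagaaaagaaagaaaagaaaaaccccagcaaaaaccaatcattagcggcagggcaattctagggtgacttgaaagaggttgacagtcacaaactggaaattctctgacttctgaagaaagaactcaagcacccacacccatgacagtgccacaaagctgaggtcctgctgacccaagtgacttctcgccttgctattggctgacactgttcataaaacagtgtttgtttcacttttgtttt
Ptgdr: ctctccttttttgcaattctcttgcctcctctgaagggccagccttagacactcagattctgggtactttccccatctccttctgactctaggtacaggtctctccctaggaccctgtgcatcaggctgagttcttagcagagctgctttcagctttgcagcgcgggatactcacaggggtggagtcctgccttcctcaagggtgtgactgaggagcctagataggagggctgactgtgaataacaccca
Ptger4: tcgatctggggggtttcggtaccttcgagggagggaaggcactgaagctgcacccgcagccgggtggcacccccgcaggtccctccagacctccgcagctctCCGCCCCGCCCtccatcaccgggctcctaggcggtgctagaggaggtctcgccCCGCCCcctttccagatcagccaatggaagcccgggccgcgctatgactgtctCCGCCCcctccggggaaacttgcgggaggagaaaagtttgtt
Ltb4r1: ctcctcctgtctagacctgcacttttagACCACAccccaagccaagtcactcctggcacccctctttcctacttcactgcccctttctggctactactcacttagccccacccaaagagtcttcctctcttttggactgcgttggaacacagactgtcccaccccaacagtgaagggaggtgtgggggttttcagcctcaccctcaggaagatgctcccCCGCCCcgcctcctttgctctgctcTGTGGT

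The windows differed in base composition. Those of Cysltr2 and Ptgdr each held 2 CpG dinucleotides, with 42.8% and 53.2% G and C. That of Ptger4 held 19 CpG and 66.8% G and C, against medians of 6 CpG and 52.4% over 32851 promoters of the same length. Ptger4 had 4 GC boxes, of which the first pair overlap by 1 base, and Ptger3 had 3, while 32.7% of all promoters hold at least 1. Ltb4r1 had 1 GC box and 2 RUNX cores, a motif found in 14.0% of promoters. No match to any motif searched, including the octamer ATGCAAAT (1.60% of promoters) and the TATA box TATAAA (12.4%), was found in the windows of Cysltr2, Oxgr1, Ptger2 or Ptgdr. These matches describe letters in a window and were not tested for binding.

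The other cysteinyl leukotriene receptors were near the limit of detection. Cysltr1, on the X chromosome, encodes CysLT1, the main receptor for leukotriene D4. It had 14 counts in small intestine tuft replicate 2 (0.307 CPM), 13 in thymus replicate 1 (0.222 CPM), 8 in trachea replicate 1 (0.221 CPM) and 1 in trachea replicate 2 (0.0151 CPM). The other 17 libraries, including all 3 non-tuft libraries, held no count. It was called in none of the 10 comparisons between tuft tissues. Oxgr1, on chromosome 14, encodes a receptor for 2-oxoglutarate that also binds leukotriene E4. It was detected in every thymus library, at 0.154, 0.345, 0.105 and 0.740 CPM, and at most at 0.0736 CPM in any other library. The measured values of thymus thus did not overlap those of the other groups. Gall bladder replicate 3 and trachea replicate 4 held no count, which allows up to 0.106 and 0.117 CPM, above the lowest thymus value. The thymus mean was at least 21.9-fold higher than in colon tuft, where all 4 libraries were at 0 and 3 counts over the group set the bound. With so few counts Oxgr1 did not pass the filter on low counts and was not tested.

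Ltb4r1 encodes BLT1, the receptor for leukotriene B4, and showed another pattern. Small intestine tuft libraries held 1.32, 2.74 and 3.59 CPM, non-tuft libraries 2.36, 1.52 and 1.52 CPM, and gall bladder tuft libraries 2.09, 1.38 and 0.425 CPM. Colon tuft libraries were at 0.0455, 0, 0.0359 and 0.0802 CPM, and trachea tuft libraries at 0.138, 0.0303, 0 and 0.195 CPM. In thymus, replicate 1 stood at 2.21 CPM and the others at 0.0383, 0.0749 and 0.0600 CPM. Small intestine tuft and non-tuft libraries overlapped, and their difference was not called (log2 fold change 0.61 ± 0.50, adjusted p = 0.362).

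Ltb4r1 was called lower in colon than in small intestine tuft (-5.91 ± 1.75, adjusted p = 0.0402; a 63.0-fold ratio of means) and lower in trachea than in small intestine tuft (-4.85 ± 1.68, adjusted p = 0.0367). Gall bladder was called higher than colon (4.95 ± 1.69, adjusted p = 0.0463). Small intestine tuft was called higher than the mean of the other tuft tissues (3.45 ± 1.04, adjusted p = 0.0240), a call that was lost without its replicate 3 (adjusted p = 0.0862) or 4 (adjusted p = 0.125). The thymus difference of 0.85 ± 1.04 (adjusted p = 0.581) rested on replicate 1 and was -2.57 without it. Ltb4r2, the gene of a second leukotriene B4 receptor, ends 0.824 kb before Ltb4r1 starts. It had mean levels of 1.69 CPM in non-tuft cells, 1.31 in small intestine tuft, 0.266 in gall bladder, 0.547 in thymus, 0.0439 in colon and 0.0207 in trachea.

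The prostaglandin E2 receptor Ptger4 was the only one of the 10 with a count in every library. It encodes EP4, a receptor coupled to stimulation of adenylyl cyclase that is widely expressed in gut epithelium, and lies at chr15:5206661-5244187 (minus strand). Non-tuft libraries held 80.7, 83.6 and 79.9 CPM and small intestine tuft libraries 12.3, 14.8 and 11.2 CPM. Colon tuft libraries held 87.8, 88.6, 45.6 and 90.2 CPM, gall bladder 34.3, 33.4 and 30.7 CPM, and thymus 13.9, 8.20, 15.0 and 13.8 CPM. Trachea libraries held 1.41, 0.121, 4.04 and 0.117 CPM. The non-tuft and small intestine tuft libraries were far apart, whereas colon tuft overlapped the non-tuft libraries.

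Within the small intestine, Ptger4 was lower in tuft than in non-tuft cells, with a log2 fold change of -2.58 ± 0.15 (adjusted p = 8.34e-07), and the non-tuft mean was 6.39-fold the tuft mean. Among tuft tissues it was higher in colon than in the mean of the others (3.05 ± 0.51, adjusted p = 2.26e-04) and lower in trachea (-4.21 ± 0.77, adjusted p = 3.17e-04). These 3 calls held in every alternative, including without colon replicate 3. In order of mean level the groups were non-tuft (81.4 CPM), colon (78.0), gall bladder (32.8), small intestine tuft (12.7), thymus (12.7) and trachea (1.42). Of these neighbours only thymus and trachea differed by a call (adjusted p = 0.00492). Colon and gall bladder did not overlap, yet their difference of 1.22 on the log2 scale missed the threshold (adjusted p = 0.292). The same held for colon and small intestine tuft, which did not overlap either (2.58 ± 0.85, adjusted p = 0.0652). That contrast used the fit of all tuft libraries, whereas the call within the small intestine used its own libraries alone. With all 21 libraries in the fit, the difference within the small intestine was -2.64 ± 0.80 (adjusted p = 0.0487). Adjusted p from different fits therefore does not rank these differences by strength of evidence. Per kilobase, Ptger4 stood at 12.2 CPM in non-tuft cells and 11.7 CPM in colon tuft, below Cysltr2 in thymus.

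Exons of Ptger4 overlap those of Ttc33 on the opposite strand, and whether the authors counted by strand is not stated in the labels. Ttc33 had 6.81 CPM in non-tuft cells, 4.43 in small intestine tuft, 8.33 in colon, 3.90 in gall bladder, 8.14 in thymus and 5.44 in trachea. Exons of Gm15937 overlap those of Ptger4 on the opposite strand as well, and its mean was at most 0.0216 CPM in any group.

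Ptger3 encodes EP3, which couples mainly to inhibition of adenylyl cyclase. It was at 0 in all 3 small intestine tuft libraries, while the non-tuft libraries held 0.268, 0.344 and 0.202 CPM. Colon tuft libraries held 0.546, 0.455, 0.681 and 0.301 CPM and thymus libraries 2.52, 1.95, 2.20 and 1.44 CPM. Gall bladder libraries were spread over 1.13, 6.29 and 0 CPM, and trachea had a single count in replicate 1. Thymus was thus the only group with more than 1 CPM in each library.

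Against small intestine tuft, where 3 counts over the group would be 0.0232 CPM, Ptger3 was at least 11.7-fold higher in non-tuft cells (adjusted p = 0.00697), at least 21.4-fold higher in colon tuft (adjusted p = 0.0365) and at least 87.5-fold higher in thymus tuft (adjusted p = 0.00586). Without non-tuft replicate 1, or without mitochondrial genes, Ptger3 did not pass the filter within the small intestine and was not tested there. With replicate number as a block, the call within the small intestine was lost. Because small intestine tuft was at 0, fitted fold changes that include this group depend on the prior count, and the contrast of trachea with the other tissues had no usable standard error. The calls of Ptger3 as higher in thymus (adjusted p = 0.00111) and in gall bladder (adjusted p = 0.00173) than in the other tuft tissues include it too. The thymus call held wherever the gene was tested. The gall bladder call was lost without replicate 3 of that tissue (adjusted p = 0.0652), under voom with sample weights (adjusted p = 0.485) and with replicate number as a block. The call of small intestine tuft as lower than the other tissues (adjusted p = 0.0223) was lost without any 1 of its own replicates (adjusted p from 0.0862 to 0.0872) and without trachea replicate 1, where the fit had no usable standard error (adjusted p = 1.00).

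Ptger2, which encodes EP2, was almost absent: 9 counts in non-tuft replicate 2, 15, 2 and 1 counts in thymus replicates 1, 2 and 3, and 1 count in gall bladder. Small intestine, colon and trachea tuft libraries held none, and the gene was not tested. Exons of Ptger2 overlap those of Gm17173 on the opposite strand. That gene had 40 counts in thymus, 13 in non-tuft cells and none in the other groups, and reads of the overlap cannot be assigned without strand. The remaining prostaglandin E2 receptor, Ptger1 (EP1), was not among the 10. It was called higher in small intestine tuft than in non-tuft cells, at 30.9 ± 11.0 against 16.6 ± 3.45 CPM (SD, n = 3 each; adjusted p = 0.0141), and had a mean of 18.9 CPM in thymus and 19.9 CPM in trachea. Per kilobase, Ptger1 was the highest of the prostaglandin E2 receptor genes in small intestine tuft (5.65 CPM, against 1.92 CPM for Ptger4), gall bladder (7.62 against 4.93), thymus (3.46 against 1.91) and trachea (3.64 against 0.214), but not in colon (4.57 against 11.7) or non-tuft cells (3.03 against 12.2).

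Ptgdr encodes DP1, a prostaglandin D2 receptor that stimulates adenylyl cyclase. Non-tuft libraries held 19.9, 13.9 and 12.9 CPM against 0.679, 0.196 and 0.442 CPM in small intestine tuft. In thymus the 4 libraries held 2.12, 0.230, 5.99 and 1.64 CPM. In colon, gall bladder and trachea no library exceeded 0.0828 CPM. Non-tuft cells thus stood above all tuft libraries, and thymus overlapped small intestine tuft through its replicate 2.

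The difference within the small intestine was -5.03 ± 0.43 on the log2 scale (adjusted p = 1.18e-05), with a non-tuft mean 35.5-fold the tuft mean, and held in every alternative. Thymus was called higher than the other tuft tissues (5.63 ± 1.03, adjusted p = 2.38e-04) but not different from small intestine tuft alone (2.50 ± 1.62, adjusted p = 0.283). Exons of Ptgdr overlap those of Gm16976 on the opposite strand. That gene had 6.86, 6.46 and 4.09 CPM in the non-tuft libraries and a mean of 0.458 CPM in small intestine tuft, so it moved in the same direction, and reads of the overlap cannot be assigned without strand.

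The non-tuft sort differed from the tuft sort in markers of other cell types as well. Of the enteroendocrine markers, all 7 had at least 1 CPM in both groups, and their sum was 9261 to 13115 CPM in non-tuft libraries against 474 to 1036 CPM in tuft libraries. The 6 goblet markers summed to 102424 to 111933 CPM against 2041 to 2473 CPM. The sum of the 7 enterocyte markers went the other way, at 12184 to 14260 CPM in non-tuft and 22175 to 26847 CPM in tuft libraries. All 7 had a mean of at least 1 CPM in both groups. The part of these cells in the levels of Ptger4, Ptgdr and Ptger3 was not tested.

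Ptgdr2 encodes DP2, also called CRTH2, the receptor through which prostaglandin D2 attracts type 2 immune cells. It had 3 counts in non-tuft replicate 2 and 20 in non-tuft replicate 3, and none in any of the 18 tuft libraries, which allows up to between 0.0449 and 0.117 CPM per library. Its exons overlap those of Ccdc86 on the opposite strand, which had 21.2 CPM in non-tuft cells and 3.58 to 11.5 CPM in the tuft groups. Ptgdr2 was not tested.

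S1pr1, on chromosome 3 (chr3:115710433-115715072, minus strand), encodes S1P1, the receptor that guides lymphocytes out of the thymus and lymph nodes and that keeps endothelium tight. The thymus tuft libraries held 14.1, 16.7, 25.5 and 6.52 CPM, a mean of 15.7 ± 7.84 CPM (SD, n = 4). Non-tuft libraries held 0.250, 0.142 and 0.101 CPM and colon tuft libraries 0.114, 0, 0.125 and 0.120 CPM. Gall bladder libraries held 0.0981, 0 and 0.0749 CPM, while small intestine tuft and trachea tuft held 1 and 2 counts in all. As for Cysltr2, every thymus library lay above every other library, here with a wider spread among the 4.

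S1pr1 was higher in thymus than in the other tuft tissues by 9.06 ± 0.91 on the log2 scale (adjusted p = 3.13e-07), and its mean was 95.6-fold that of non-tuft cells. That call held in every alternative. The call of trachea as lower than the other tissues (-3.80 ± 1.29, adjusted p = 0.0292) compared 2 counts with a mean that includes thymus. It was lost without trachea replicate 1, 3 or 4 (adjusted p from 0.0593 to 0.0651), without small intestine tuft replicate 4, where the fit had no usable standard error (adjusted p = 1.00), and under voom (adjusted p = 0.148). The trachea call was also lost with replicate number as a block.

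Of the 4 other sphingosine 1-phosphate receptors, S1pr3 followed the same tissue pattern, at 23.6 ± 3.22 CPM in thymus against a mean of 0.0551 CPM over the other tuft tissues (8.84 ± 0.94, adjusted p = 5.70e-07). S1pr5 was also called higher in thymus, at 1.22 ± 1.47 CPM against 0.0703 CPM (adjusted p = 0.00849). S1pr2 was called higher in trachea, at 17.4 CPM with an SD of 32.1 over 4 libraries, against 2.26 CPM elsewhere (adjusted p = 0.00845). Per kilobase S1pr3 (5.29 CPM) and S1pr1 (5.16 CPM) stood close together in thymus.

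**Figure D2:**
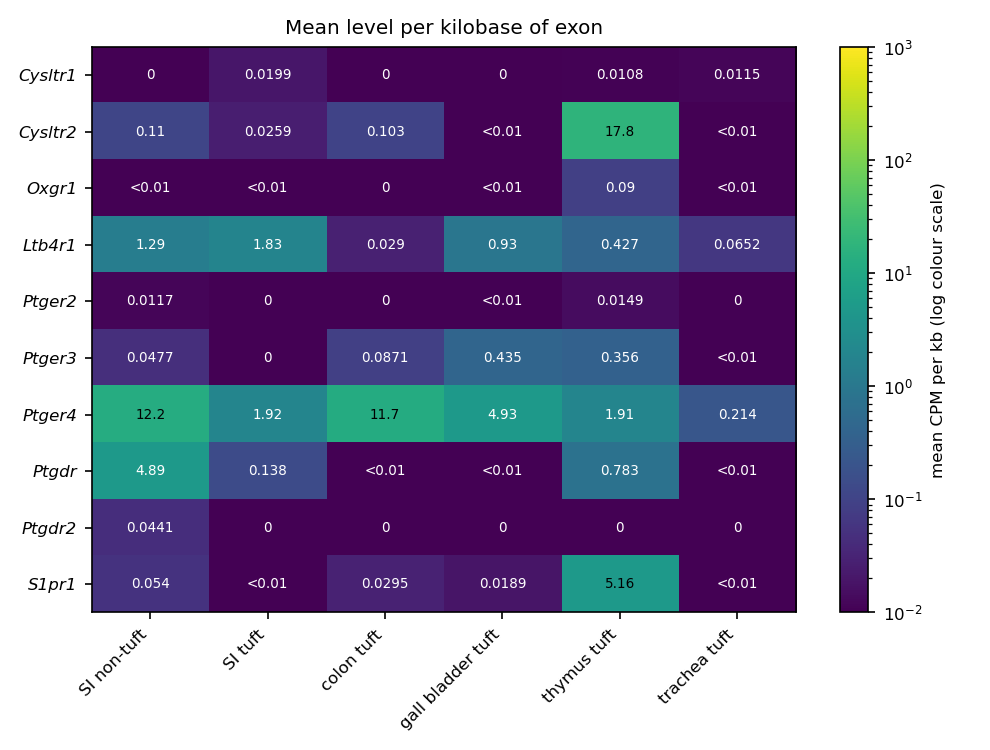
Mean CPM per kilobase of union exon length for the 10 receptors (rows) in the 6 groups (columns), with the value written in each cell and a logarithmic colour scale. The highest cells are Cysltr2 in thymus tuft (17.8), Ptger4 in non-tuft cells (12.2) and in colon tuft (11.7), and Ptger4 (4.93) in gall bladder, S1pr1 (5.16) in thymus and Ptgdr (4.89) in non-tuft cells follow.

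Thymus libraries also held RNA of genes on the marker lists of thymic epithelium and of other cell types, although the sort removed CD45-positive cells. Whether this RNA came from such cells or from the sorted tuft cells was not tested. Thymic epithelial markers, all 6 at 1 CPM or more, summed to 1094 to 1267 CPM in thymus and to at most 123 CPM in any other library. Markers of group 2 innate lymphoid cells summed to 291 to 416 CPM (up to 163 CPM in gall bladder), with Il13 at 232 CPM, and 6 of 7 were at 1 CPM or more. Eosinophil markers, 5 of 5, summed to 57.4 to 76.4 CPM. Their sum was higher in small intestine tuft (948 to 1064 CPM), gall bladder (209 to 495) and colon (97.6 to 177). In those groups Siglecf was the only eosinophil marker at 1 CPM or more. Myeloid markers, 8 of 8, summed to 238 to 298 CPM (up to 3770 CPM in trachea), with Lyz2 at 190 CPM. Mast cell and basophil markers, 3 of 8, summed to 158 to 295 CPM (up to 539 CPM in trachea), with Kit at 210 CPM. In every other group Kit was the only mast cell and basophil marker at 1 CPM or more. T cell and thymocyte markers, 7 of 10, summed to 13.7 to 49.2 CPM, a range that overlaps those of small intestine tuft (21.7 to 31.9 CPM) and gall bladder tuft (19.7 to 41.3 CPM). The highest of them in thymus were Themis (6.24 CPM), Cd4 (5.97 CPM) and Lck (5.73 CPM), with Rag1 at 3.06 CPM, and Themis had a mean of at most 0.150 CPM in the other groups. Smooth muscle markers, 4 of 4, summed to 71.9 to 176 CPM in thymus and to at most 23.4 CPM in any other library. Fibroblast markers, 6 of 6, summed to 20.3 to 126 CPM (up to 107 CPM in trachea), neutrophil markers, 3 of 4, to 20.4 to 35.8 CPM (up to 13.2 CPM in gall bladder) and B cell markers, 3 of 4, to 21.6 to 38.3 CPM (up to 122 CPM in trachea). The part of any such cells in the thymus levels of Cysltr2, S1pr1, Ptgdr, Ptger3 and Oxgr1 was not tested.

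The endothelial list, 3 of 7 at 1 CPM or more, summed to 59.1 to 143 CPM in thymus. Its members had thymus means of 72.2 CPM for Tek, 25.5 for Flt1, 4.28 for Pecam1, 0.945 for Cdh5, 0.915 for Plvap, 0.0428 for Cldn5 and 0.0257 for Kdr. Flt1 was above the S1pr1 mean of 15.7 CPM and was highest in thymus, with means of 6.64 CPM in gall bladder and at most 0.207 CPM in the other groups, whereas Tek was higher in gall bladder (232 CPM) and trachea (151 CPM). The part of endothelial RNA in the thymus level of S1pr1 was not tested.

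Trachea libraries held airway secretory and ciliated markers at a sum of 26359 to 106756 CPM, against at most 477 CPM in any other library. Myeloid markers summed to 1812 to 3770 CPM there, with 3 of 8 at 1 CPM or more. Lyz2 alone had a mean of 2641 CPM, while Fcer1g and C1qa had no count. The part of any such cells in the low trachea levels of Ptger4, Cysltr2 and S1pr1 was not tested.

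Counts of calls were read against the share of all genes called in the same comparison. Within the small intestine, 4 of the 10 receptors passed the filter on low counts, none was called higher in tuft than in non-tuft cells and 3 were called lower (Ptger3, Ptger4 and Ptgdr), where 13% of 16063 genes were called higher and 13.9% lower. Without tuft replicate 2, Cysltr2 was also tested and called lower. Between each tuft tissue and the mean of the other 4, 7 receptors were tested (all but Oxgr1, Ptger2 and Ptgdr2) among 19850 genes. The 5 comparisons share libraries and are not independent of each other.

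In thymus 4 receptors were called higher (Cysltr2, Ptger3, Ptgdr and S1pr1) and none lower, where 26.8% of genes were called higher and 5.64% lower. In trachea none was called higher and 3 lower (Cysltr2, Ptger4 and S1pr1), where 17.3% and 13.7% were. In small intestine tuft Ltb4r1 was called higher and Ptger3 lower, where 10% and 7.45% of genes were called. Gall bladder had 1 receptor called higher, Ptger3, and 1 lower, Cysltr2 (12.7% and 8.79%), and colon had Ptger4 higher and none lower (10.7% and 5.78%). The median log2 fold change of the 7 receptors tested was 4.77 in thymus and -3.80 in trachea, against 0.33 and -0.01 over all genes tested. These medians cover only receptors that passed the filter, and those that passed through thymus alone had to differ there.

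**Figure D3:**
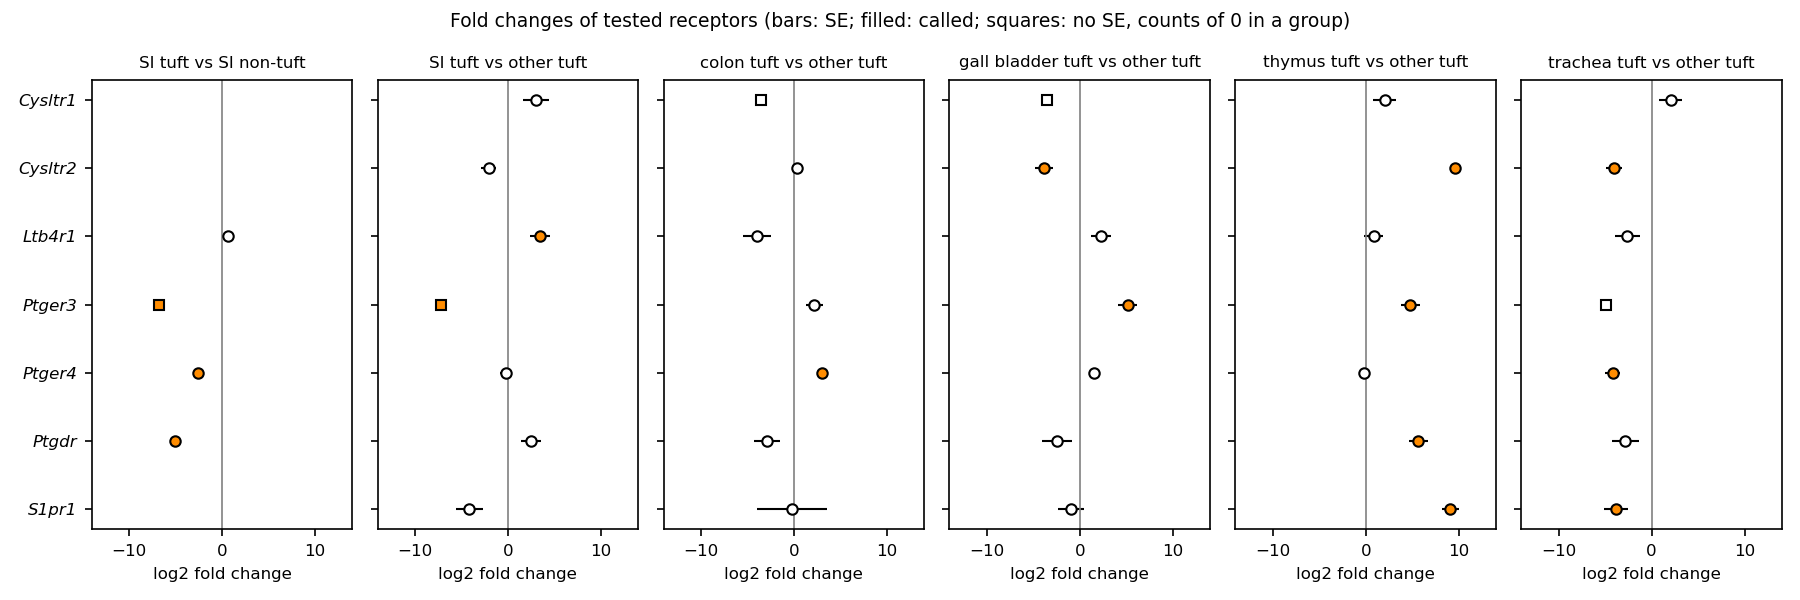
Log2 fold change of each receptor tested (rows) in 6 comparisons (panels), with bars for the standard error, filled symbols for calls and squares where counts of 0 left no usable error. In thymus 4 of the 7 receptors tested were called higher, where 26.8% of all genes tested were, and in trachea 3 were called lower, where 13.7% were.

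Over the 10 pairs of tuft tissues, 27 of 70 tests of a receptor were calls, where 23% of all tests over genes were. The counts were 2 of 7 between colon and small intestine tuft (8.36% of genes called), 1 between gall bladder and small intestine (14.8%), 3 between thymus and small intestine (25.7%) and 2 between trachea and small intestine (27.8%). They were 2 between gall bladder and colon (18.2%), 4 between thymus and colon (25.6%), 3 between trachea and colon (27.1%) and 3 between thymus and gall bladder (30.6%). Trachea differed by 2 calls from gall bladder (23.8%) and by 5 from thymus (27.9%), all of them lower in trachea. Cysltr2 and Ptger3 were called in 6 pairs each, Ptger4 in 5, S1pr1 in 4, Ltb4r1 and Ptgdr in 3 each and Cysltr1 in none. All 4 pairs that include thymus were calls for Cysltr2 and for S1pr1. When each tuft tissue was set against the shared non-tuft libraries, 16 of 35 tests were calls, 2 higher and 14 lower, where 10.4% and 9.4% of all tests were. By tissue the calls were 3 in small intestine tuft (6.51% of genes called in that fit), 2 in colon (7.67%), 2 in gall bladder (26%), 3 in thymus (27.5%) and 6 in trachea (31.2%). The 2 higher were Cysltr2 (7.23 ± 1.02, adjusted p = 1.90e-05) and S1pr1 (6.47 ± 1.47, adjusted p = 0.00231) in thymus. Without non-tuft replicate 1 or 2 the count of 16 fell to 9. Outside the small intestine these differences hold tissue and cell type together.

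Other genes of the pathway were taken from lists chosen with earlier results of these data known. The first list held 27 other lipid mediator receptors. Within the small intestine 14 of them were tested. Of these 4 were called higher and 1 lower, where 13% and 13.9% of all genes were. The median log2 fold change was 0.33 against -0.03 over all genes tested. Gpr55, a receptor for lysophosphatidylinositol, had 96.2 ± 14.6 against 31.9 ± 3.53 CPM (adjusted p = 2.14e-05). Lpar6, a lysophosphatidic acid receptor, had 56.5 ± 30.8 against 13.1 ± 1.68 CPM (adjusted p = 3.99e-04), and Gpr18 had 10.1 ± 0.965 against 0.402 ± 0.161 CPM (adjusted p = 1.12e-05). Lpar3 was the 1 called lower, at 0.578 ± 0.299 against 5.87 ± 0.213 CPM (adjusted p = 3.10e-04). All of these means are over 3 libraries a group, with SD.

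Between tuft tissues 19 of the 27 were tested. In thymus 7 were called higher and 1, Lpar6, lower, where 26.8% and 5.64% of all genes were. Beside S1pr3 and S1pr5 these included Gpr132, a receptor for oxidised and lysophospholipids, at 22.6 ± 14.9 CPM against 0.176 CPM elsewhere (adjusted p = 1.31e-06), and Ptgir, the prostacyclin receptor, at 4.41 ± 2.58 against 0.00966 CPM (adjusted p = 3.54e-06). Small intestine tuft had 6 called higher and none lower, where 10% and 7.45% of all genes were. Among the 6 were Gpr55, Lpar6 and Ptafr, the receptor for platelet-activating factor (3.62 ± 1.40 against 0.284 CPM, adjusted p = 0.00136). Trachea had 4 higher and 4 lower (17.3% and 13.7% of all genes). Lpar3 was among the higher there, at 42.2 CPM with an SD of 66.0 over 4 libraries against 0.369 CPM (adjusted p = 2.47e-05). Gall bladder had 2 higher, Lpar2 at 25.3 ± 27.1 CPM and Ptgfr, the prostaglandin F2α receptor, at 4.06 ± 6.80 CPM, and colon had none in either direction. Of all genes, 12.7% were called higher and 8.79% lower in gall bladder, and 10.7% and 5.78% in colon.

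The second list held enzymes and transporters of leukotrienes and prostaglandins. Per kilobase, Alox5 stood at 231 CPM and Ptgs1 at 196 CPM in small intestine tuft, where the highest of the 10 receptors, Ptger4, stood at 1.92 CPM. Of the 26 genes, 22 were tested in small intestine tuft relative to non-tuft cells (median log2 fold change 0.71). Of these 7 were called higher and 3 lower, where 13% and 13.9% of all genes were. Alox5, the 5-lipoxygenase that starts leukotriene synthesis, had 949 ± 80.0 against 9.31 ± 2.56 CPM, and Ltc4s, which makes leukotriene C4, had 129 ± 11.6 against 2.01 ± 0.682 CPM (adjusted p = 3.34e-08 and 8.94e-08). Ptgs1, cyclooxygenase-1, had 760 ± 118 against 11.6 ± 0.516 CPM (adjusted p = 2.38e-08). In thymus 6 of 25 tested were higher and 6 lower than in the other tuft tissues, where 26.8% of all genes were called higher and 5.64% lower. Ptgs2, cyclooxygenase-2, had 403 ± 36.5 CPM in thymus (n = 4) against a mean of 16.8 CPM (adjusted p = 2.41e-08), while Ltc4s was lower there, at 26.9 ± 8.06 against 102 CPM (adjusted p = 9.29e-04). Per kilobase, Ltc4s stood at 26.5 CPM in thymus beside 17.8 CPM for Cysltr2, and at 128 CPM in small intestine tuft and 195 CPM in gall bladder tuft, where Cysltr1 and Cysltr2 were each at 0.0259 CPM or less.

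**Figure D4:**
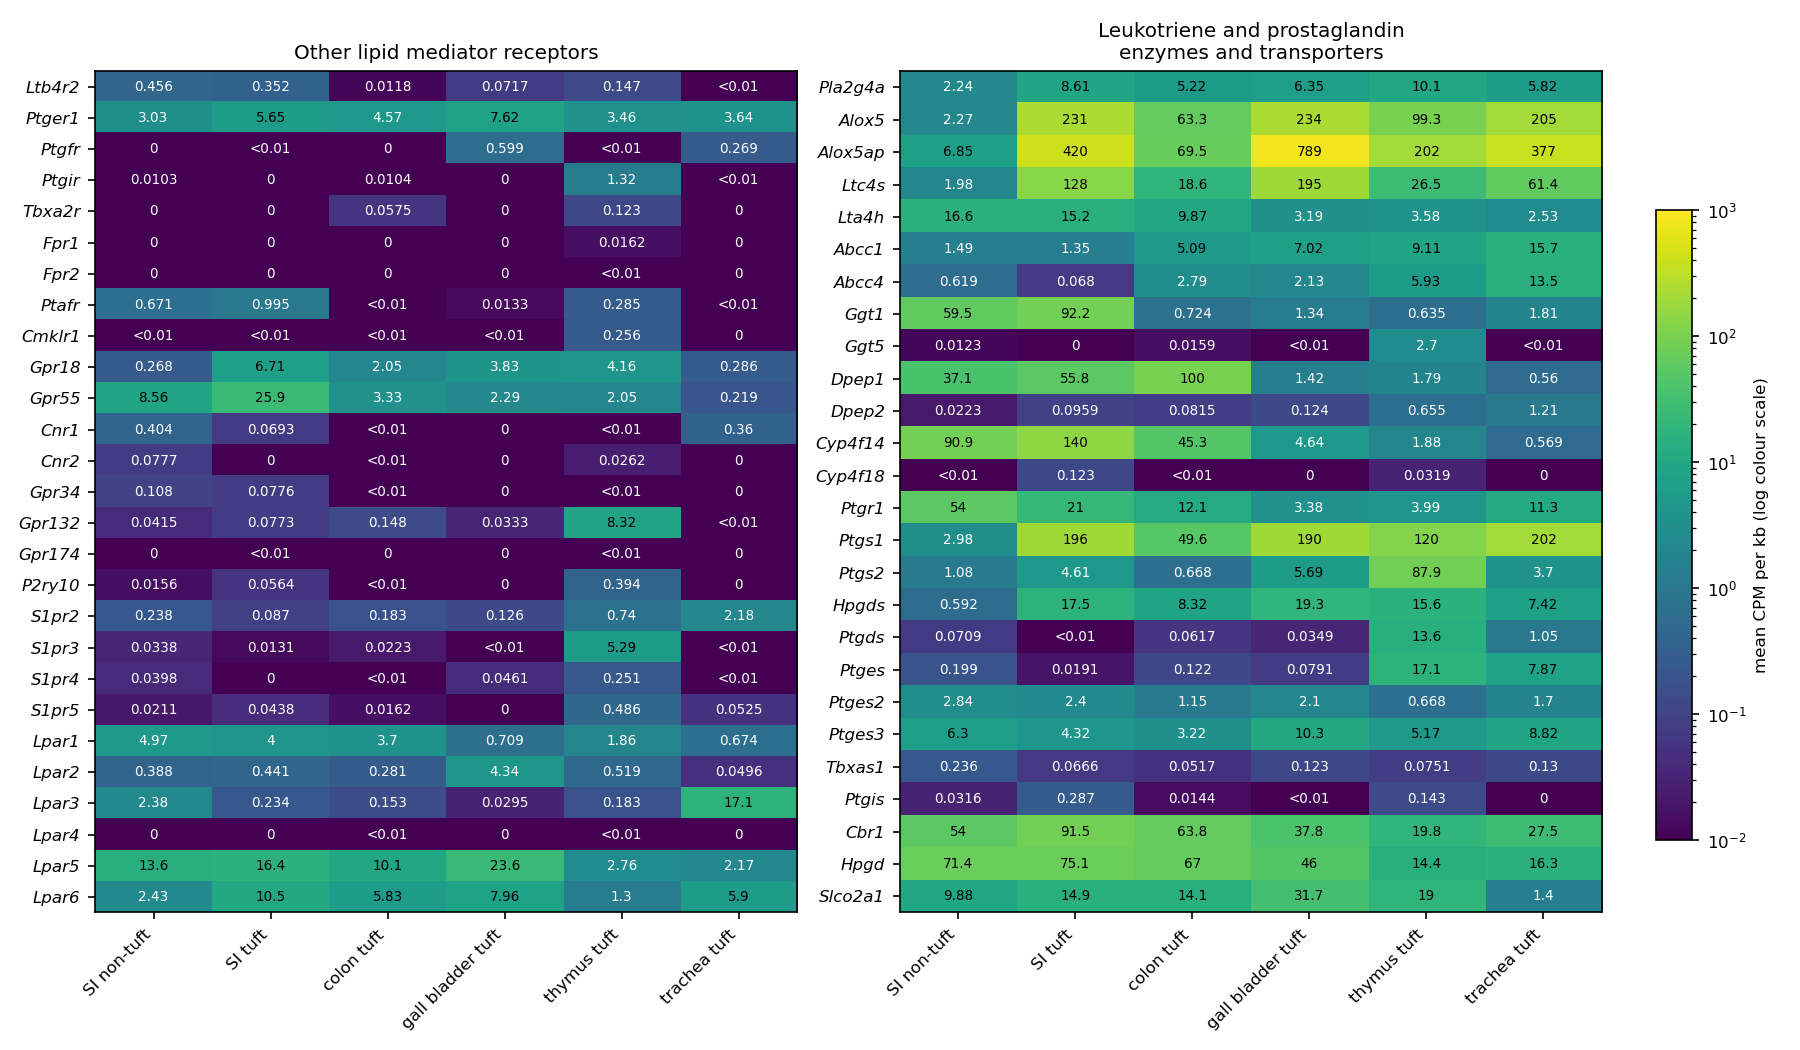
Mean CPM per kilobase of exon of 27 other lipid mediator receptors (left) and 26 enzymes and transporters of leukotrienes and prostaglandins (right) in the 6 groups, with the value written in each cell and 1 logarithmic colour scale for both panels. Alox5, Alox5ap, Ltc4s and Ptgs1 are high in every tuft group, whereas S1pr3, Gpr132 and Ptgir are high in thymus tuft only.

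Genes of sphingosine 1-phosphate metabolism and transport formed the third list. Of 14 tested in thymus against the other tuft tissues, 4 were called higher and 2 lower, where 26.8% and 5.64% of all genes were, so the share called higher was near that of all genes. Sgpl1, the lyase that destroys sphingosine 1-phosphate, had 343 ± 47.8 against 65.1 CPM (adjusted p = 7.27e-08), and the phosphatase gene Sgpp1 had 287 ± 51.5 against 124 CPM (adjusted p = 1.38e-04). Within the small intestine, relative to non-tuft cells, 3 were called higher and 1 lower, where 13% and 13.9% of all genes were. Spns2, which exports sphingosine 1-phosphate, had 80.8 ± 20.4 against 23.4 ± 0.894 CPM (adjusted p = 1.99e-05), in a cell where S1pr1 had a single count over 3 libraries. Trachea had 2 higher and 7 lower (17.3% and 13.7% of all genes), and the small intestine among tuft tissues 6 and 1 (10% and 7.45%). Colon had 2 and 4 (10.7% and 5.78%), and gall bladder 2 and 2 (12.7% and 8.79%).

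The last list held G proteins and effectors through which these receptors signal. Of 28 listed, 26 were tested within the small intestine, with 7 called higher and 3 lower, where 13% and 13.9% of all genes were. Gnai2, an inhibitory G protein subunit, had 726 ± 106 against 167 ± 26.5 CPM (adjusted p = 7.05e-06), and Plcb2, a phospholipase C of taste-like cells, had 872 ± 86.6 against 14.1 ± 4.88 CPM (adjusted p = 1.17e-07). In gall bladder tuft Adcy4, an adenylyl cyclase, had 217 ± 26.4 CPM against 3.86 CPM in the other tuft tissues (adjusted p = 8.01e-07). In thymus 8 of 28 were called higher and 3 lower, where 26.8% and 5.64% of all genes were. In trachea 7 were called higher and 4 lower, where 17.3% and 13.7% of all genes were.

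Genes whose levels followed each receptor most closely were found by Pearson's correlation of log2(CPM + 0.5) over the 21 libraries, among 12294 genes with a highest group mean of at least 10 CPM, for the 4 receptors with a highest group mean of at least 5 CPM. These values describe libraries that fall into 6 groups of unequal depth and cell number, so a pair of genes raised in 1 group alone reaches a high value. For Cysltr2 they were Skint4 (r = 0.998), Cybb (0.997) and Dsg1a (0.997), with thymus means of 50.3, 39.5 and 37.7 CPM. For S1pr1 they were Hrnr (0.998), Nol4 (0.998) and Prg2 (0.997), of which Prg2, an eosinophil granule gene, had 14.2 CPM in thymus. For Ptgdr they were the neuropeptide gene Nts (0.941), 2010001K21Rik (0.941) and P2ry4 (0.924), with 53.4, 33.1 and 16.1 CPM in non-tuft cells. For Ptger4 they were Plk3 (0.942), Ugcg (0.932) and the endothelin gene Edn1 (0.919), and each of these 3 had its highest mean in colon tuft.

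On chromosome 14 lie 5 of the receptor genes (Cysltr2, Oxgr1, Ltb4r1, Ptger2 and Ptgdr), with 128.82 kb between Ptgdr and Ptger2. These neighbours did not share a pattern: Ptgdr reached 19.9 CPM in non-tuft cells, where Ptger2 reached 0.182 CPM.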

How the data were processed

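RNA of sorted cells was sequenced in 21 libraries (6 groups), with n = 3 or 4 per group. Per the labels' protocols, poly(A) RNA was amplified with the NuGEN Ovation RNA-Seq V2 kit and made into Nextera XT libraries, without molecular identifiers. The authors deposited unnormalized counts per gene, and per the submitters' processing notes STAR, DESeq2 and GRCm38 were used. Versions, the counting step and its use of strand were not given in the sources used here. Per the series description, 1 small intestine tuft, 1 gall bladder and 1 non-tuft library were discarded on quality.

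Of 43432 gene identifiers, 42548 matched a symbol, and the other 884 held 0.0986% of counts. No 2 libraries of a group were alike enough to be 1 library deposited again (lowest chi-square per degree of freedom 35.3). Trachea libraries are pools of 4 mice; for the rest, p-values measure the spread between libraries.

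Differential expression was tested with edgeR 4.0.16 (quasi-likelihood test, filterByExpr, TMM) in R 4.3.3, with Benjamini-Hochberg adjustment over all genes tested. Small intestine tuft and non-tuft libraries were fitted alone (6 libraries), tuft tissues together (18), and each tuft tissue against non-tuft cells over all 21. CPM used TMM factors from all genes, and CPM per kilobase divided by union exon length. The code was tested on simulated data. Alternatives were RLE size factors, DESeq2 1.42.0, limma 3.58.1 voom with sample weights, no filter, a filter of 5 CPM in 3 libraries, no mitochondrial genes, a replicate block, all 21 libraries in the fit, and each library left out. Tables and figures were made with Python 3.11.15, pandas 2.3.3 and matplotlib 3.10.9.

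The receptors and lists were chosen with earlier results of these data known. All 10 receptors are named, and from each list genes come from the 5 called with the highest mean CPM in the higher group of a comparison. Counted genes whose exons overlap those of a receptor, and the neighbour Ltb4r2, are given beside it. The 3 genes most like a receptor were taken by correlation.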

Additional observations from a re-analysis of the deposited data

Results flagged for a closer look

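In 17 combinations of a receptor and a group of 4 libraries, of which at least 1 held more than 3 counts, each extreme library was compared with the rest by Dixon's test. In 6 of them a library stood far from the others. The test's chance rate of about 1 in 20 holds for normally distributed values and not for counts near 0, so no excess is read from this. Where all other libraries hold 0, as for Cysltr1 in thymus, any count stands apart. Thymus replicate 1 stood apart for 3 receptors. It had 0.222 CPM of Cysltr1 against 0 in the other 3 thymus libraries, 2.21 CPM of Ltb4r1 against 0.0383 to 0.0749 CPM, and 0.257 CPM of Ptger2 against 0 to 0.0383 CPM. Trachea replicate 1 had 0.221 CPM of Cysltr1 against 0 to 0.0151 CPM. Colon replicate 3 had 45.6 CPM of Ptger4 against 87.8 to 90.2 CPM. Colon replicate 2 had 0 CPM of S1pr1 against 0.114 to 0.125 CPM.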

How the results depend on the processing

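Of the values of named receptors under an alternative, 363 kept their direction and their side of the threshold, 18 lost the call and 3 changed sign. That tally has no class for calls gained, which show only in the counts per comparison of the next paragraph. The changes of sign were all Ltb4r1 in thymus against the other tuft tissues (0.85), at -0.46 under voom, -0.49 with the replicate block and -2.57 without thymus replicate 1, in a range of -2.57 to 1.23 with 1 library left out.

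Receptors called in small intestine tuft against other tuft tissues (2) became 4 with DESeq2, 5 with voom, 1 with the 5 CPM filter, 4 with all 21 libraries in the fit and 0 to 3 with 1 library left out (0 without small intestine tuft replicate 3 or 4). Colon (1) became 2 with DESeq2, 3 with voom and 2 with all 21 libraries. Gall bladder (2) became 1 with voom, with the 5 CPM filter and with the replicate block, and 1 to 3 with 1 library left out (1 without its replicate 3). Thymus (4) became 2 with the 5 CPM filter, where Ptger3 and Ptgdr were not tested. Trachea (3) became 5 with DESeq2 and 1 with voom. Calls over tuft pairs (27) became 15 with the 5 CPM filter, and calls against non-tuft cells (16) ranged from 9 to 16. The causes were not tested, apart from genes that a filter removed.

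Under voom, Cysltr2 was no longer called lower in gall bladder (adjusted p = 0.122) or trachea (adjusted p = 0.0743). Whether replicate numbers pair the libraries was not settled. Over 45 pairs of libraries with the same number the median correlation of deviations was 0.00514, and 1 pair exceeded 0.1. Of 138 pairs with other numbers, with a median of -0.00146, 0 exceeded it. Yet 16 of 21 libraries correlated best with their own number. With the replicate block 3 calls were lost, of Ptger3 in small intestine tuft against non-tuft cells (adjusted p = 0.101) and in gall bladder (adjusted p = 0.0569) and of S1pr1 in trachea (adjusted p = 0.0737).

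Over all genes, calls fell from 4327 to 2866 (small intestine tuft against non-tuft) and from 6435 to 3758 (thymus) with the 5 CPM filter. Under voom they went from 3469 to 6655 in small intestine tuft, from 4265 to 2238 in gall bladder and from 6147 to 3399 in trachea, each against the other tuft tissues. RLE size factors moved the median log2 fold change in thymus from 0.33 to 0.43. Depth limits Cysltr1, Oxgr1, Ptger2 and Ptgdr2, which lay near the level that a count of 0 allows in most libraries.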
